A study of Mus musculus with 8 samples.

Results

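The miR-23, miR-27 and miR-24 clusters were followed in short RNAs bound to the RNA-induced silencing complex (RISC) of mouse brain. The members were 7 mature miRNAs, miR-23a-3p, miR-23b-3p, miR-27a-3p, miR-27b-3p, miR-24-3p, miR-24-1-5p and miR-24-2-5p, chosen by the name that the table gives each read, out of 895 miRNA names. They were made up of 1011 of the 47204 distinct read sequences. Argonaute complexes were pulled down with a GW182-derived peptide from cortex and hippocampus of 8 mice. Of these, 4 were 5XFADtg Rubicon+/- and 4 were 5XFADtg Rubicon-/-. All were females of a mixed C57BL/6J/SJL background, 6 or 8 months old, and the labels do not say which mouse had which age. The study's own text is not uniform here, since its results speak of the younger age alone and of fewer Rubicon+/- mice than its methods do. The 5XFADtg transgenes drive human amyloid precursor protein and presenilin with familial Alzheimer's disease mutations in neurons and were carried by both groups. Rubicon, a negative regulator of autophagy that is also needed for LC3-associated phagocytosis, was deleted in the germline, and the reference group was heterozygous and not wild type. The sample titles number the libraries as replicates and name no mouse. Each library was taken as a different mouse, since the study's methods give 4 mice per genotype.

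miRNAs guide Argonaute to target mRNAs mainly through the seed, the bases after the first base of the guide. The paralogous clusters each hold a miR-23, a miR-27 and a miR-24 hairpin made as 1 primary transcript and are known for high levels in vascular endothelium. miR-23 is known to repress glutaminase, miR-27 adipogenic and angiogenic regulators such as PPARγ and Sprouty proteins, and miR-24 cell cycle and DNA repair genes such as H2AX. From the 3p arm of each hairpin comes the guide and from the 5p arm the passenger strand, which is mostly discarded.

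The a cluster lies on the plus strand of chromosome 8 of GRCm38.p6 within 404 bases. Mir23a is at chr8:84208518-84208592, Mir27a at chr8:84208672-84208758 and Mir24-2 at chr8:84208815-84208921. In the annotation Mir24-2 overlaps an exon of the lincRNA Gm26532, whereas Mir23a and Mir27a overlap no other gene. The b cluster lies on the plus strand of chromosome 13 within 792 bases. Mir23b is at chr13:63300484-63300557, in an intron of 2010111I01Rik. Mir27b is at chr13:63300712-63300784 and Mir24-1 at chr13:63301208-63301275, and both overlap exons of that gene. All of the b cluster also lies opposite an intron of Fancc, which is on the minus strand.

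The mature sequences are shown because families are defined by their seeds, and the seed (bases 2 to 8) is in capitals. RefSeq entries of GRCm38.p6 were matched for 6 of the 7 members.
mmu-miR-23a-3p: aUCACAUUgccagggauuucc
mmu-miR-27a-3p: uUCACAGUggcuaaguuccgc
mmu-miR-27b-3p: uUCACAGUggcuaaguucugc
mmu-miR-24-3p: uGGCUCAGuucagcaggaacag
mmu-miR-24-1-5p: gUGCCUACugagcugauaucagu
mmu-miR-24-2-5p: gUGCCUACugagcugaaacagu
The members thus carried 4 main seeds. The 6mer seed of the table (bases 2 to 7) was UCACAU for miR-23, UCACAG for miR-27, GGCUCA for miR-24-3p and UGCCUA for both 5p strands, so that miR-23 and miR-27 differed in the last base of the 6mer.

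The a and b guides are told apart by 1 base near the 3′ end, which is in capitals in the most abundant deposited read of each.
mmu-miR-23a-3p: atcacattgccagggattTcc
mmu-miR-23b-3p: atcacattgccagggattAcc
mmu-miR-27a-3p: ttcacagtggctaagttcCgc
mmu-miR-27b-3p: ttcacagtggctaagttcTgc
Counted from 1 at the 5′ end of these reads and written a to b, the change was T19A in miR-23 and C19T in miR-27. Reads that stopped before this base could not be assigned by sequence, and the table named them all miR-23a-3p (3 sequences, 119 CPM) or miR-27b-3p (4 sequences, 49.2 CPM). CPM are the reads of a sequence or name per 1000000 reads of its library. The a and b shares below rest on reads that reach the base. miR-24-3p is the same in both hairpins and could not be assigned to a cluster, whereas the 5p strands differ after their first 16 bases, in capitals here.
mmu-miR-24-1-5p: gtgcctactgagctgaTATCAGT
mmu-miR-24-2-5p: gtgcctactgagctgaAACAGT

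Depth was between 509839 and 2634450 reads in the table in the Rubicon+/- libraries and between 1010177 and 19878054 in the Rubicon-/- libraries, with Rubicon-/- replicates 1 and 2 above 5000000 reads. A count of 0 allows at most 3 reads, or 0.151 to 5.79 CPM. In the lowest case, miR-24-1-5p in Rubicon+/- replicate 1, a level rested on 70 reads. The table holds small RNAs, so the Rubicon deletion itself could not be checked in it. Markers of brain cell types were present in every library, including miR-124-3p of neurons (34019 to 73960 CPM), except miR-211-5p of choroid plexus, which was at 0 in Rubicon+/- replicates 1 and 2. Of 18 marker miRNAs tested, 3 were lower in Rubicon-/- and 0 were higher (limma, adjusted p under 0.05). They were miR-200a-3p, miR-200b-3p and miR-429-3p of epithelium (limma adjusted p = 0.000534, 0.0313 and 0.000127), among 6 called of all 463 miRNAs tested (1.3%). Summed, the 5 markers of choroid plexus and epithelium were at 5307 to 9428 CPM in Rubicon+/- and 2771 to 4959.6 in Rubicon-/-, and their part in the member levels was not tested. Within this list miR-204-5p was at 3391 ± 959 and 3116 ± 967 CPM (SD, n = 4 each), and miR-211-5p at 5.52 ± 6.47 and 29.8 ± 18.9 CPM, which did not pass (limma adjusted p = 0.266). In bulk tissue, fewer cells of a type and less RNA per cell cannot be told apart.

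All 5 guides were abundant in RISC, and no difference between the genotypes passed the tests described here. Together the 7 members took 3.36% to 4.49% of the library. Their sum was 40098 ± 3165 CPM (SD, n = 4) in Rubicon+/- and 39567 ± 4720.5 in Rubicon-/-. Over the 8 libraries the order of the mean levels was miR-23b-3p (13097 ± 2439 CPM), miR-24-3p (11796 ± 2507), miR-23a-3p (6463 ± 1064), miR-27b-3p (5014 ± 1153), miR-27a-3p (3119.8 ± 703), miR-24-2-5p (205 ± 66.0) and miR-24-1-5p (138 ± 48.6). The first pair, miR-23b-3p and miR-24-3p, differed by less than their SD, and the ranges of miR-23a-3p and miR-27b-3p overlapped. A read spans the whole small RNA, so no scaling by length was made. By rank among all 895 names, miR-23b-3p stood at 17, miR-24-3p at 20, miR-23a-3p at 37, miR-27b-3p at 46, miR-27a-3p at 55, miR-24-2-5p at 224 and miR-24-1-5p at 253.

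**Figure D1:**
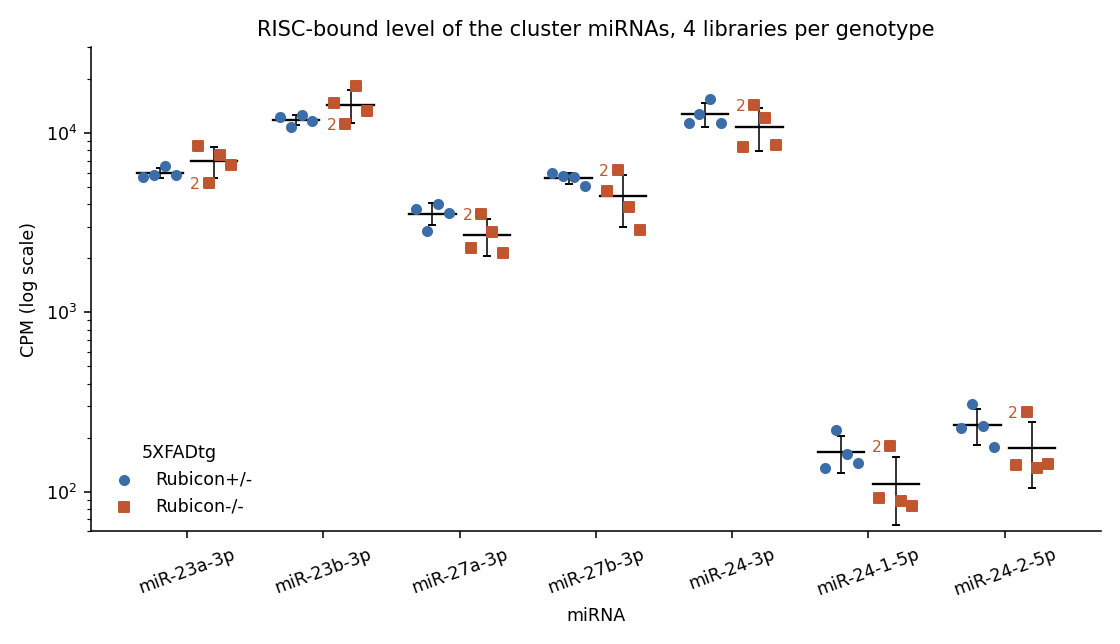
CPM (log axis) of each of the 7 miRNAs in single libraries of 5XFADtg Rubicon+/- (circles, n = 4) and Rubicon-/- (squares, n = 4), with means (lines) and SD (bars), in the order of replicates 1 to 4 from left to right; Rubicon-/- replicate 2 is numbered. This library sits within or near the Rubicon+/- points for every miRNA, and the 5p strands lie far below the 3p guides.

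Genotypes were compared for each miRNA with limma on log2(CPM + 1), on the 463 miRNAs whose mean reached 10 CPM, and p was adjusted by Benjamini-Hochberg over all 463. All 7 members passed this filter. None of the 7 passed an adjusted p of 0.05 in limma, 0 of 7 had an unadjusted p under 0.05, and 0 of 7 were called by edgeR or by DESeq2 on the recovered reads, where 0 also had an unadjusted p under 0.05. Over all miRNAs tested limma called 1.3% after adjustment and 7.34% before. The genotypes overlapped for each of the 7, and 3.46% of all miRNAs tested had genotypes that did not overlap. Fold changes are Rubicon-/- over Rubicon+/- on the log2(CPM + 1) scale, and 2 of the 7 were above and 5 below 0, beside 188 above and 275 below 0 of all miRNAs. The median was -0.39 over the members and -0.09 over all miRNAs tested. With libraries centred on their medians the latter was 0.13, and no member changed sign under this scaling. The members were then at 0.43 for miR-23a-3p, 0.48 for miR-23b-3p, -0.20 for miR-27a-3p, -0.17 for miR-27b-3p, -0.04 for miR-24-3p, -0.40 for miR-24-1-5p and -0.25 for miR-24-2-5p (log2, lowest limma adjusted p = 0.801). On recovered reads edgeR gave 0.36, 0.40, -0.29, -0.21, -0.13, -0.45 and -0.31 in the same order.

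miR-23a-3p was at 5666, 5830.2, 6522 and 5823 CPM in Rubicon+/- replicates 1 to 4 and at 8434, 5281, 7544 and 6599.9 in Rubicon-/- replicates 1 to 4. Of the Rubicon-/- libraries 3 were above the highest Rubicon+/- library and replicate 2 was below the lowest. In limma the log2 fold change came to 0.21 (SE 0.23, adjusted p = 0.975). miR-23b-3p was at 12228, 10724, 12641 and 11728 CPM against 14635, 11261, 18333 and 13225. Again 3 Rubicon-/- libraries were above all Rubicon+/- libraries, while replicate 2 was among them. The limma fit put the log2 fold change at 0.26 (SE 0.22, adjusted p = 0.947).

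miR-27a-3p was at 3780.1, 2844, 4017 and 3575 CPM in Rubicon+/- and at 2287, 3528, 2791 and 2137 in Rubicon-/-. Here 3 Rubicon-/- libraries were below the lowest Rubicon+/- library, and replicate 2 was within the Rubicon+/- range. In limma the log2 fold change came to -0.42 (SE 0.25, adjusted p = 0.768). miR-27b-3p was at 5948, 5747, 5669.6 and 5038 CPM against 4731, 6239, 3858 and 2881. Again 3 Rubicon-/- libraries were below all Rubicon+/- libraries, but replicate 2 was above all of them. The limma fit put the log2 fold change at -0.39 (SE 0.26, adjusted p = 0.796).

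miR-24-3p was at 11349.9, 12821, 15508 and 11326 CPM in Rubicon+/- and at 8358, 14302, 12150.0 and 8552 in Rubicon-/-. The groups overlapped, with only Rubicon-/- replicates 1 and 4 below the lowest Rubicon+/- library. In limma the log2 fold change came to -0.26 (SE 0.24, adjusted p = 0.948). The passenger strands of its hairpins were far scarcer. miR-24-1-5p was at 135, 220.1, 162 and 145 CPM in Rubicon+/- and at 92.4, 179, 88.9 and 83.3 in Rubicon-/-. The limma fit put the log2 fold change at -0.62 (SE 0.33, adjusted p = 0.696). miR-24-2-5p was at 226, 307, 233 and 176 CPM against 140.3, 278, 136 and 143, and limma gave -0.47 (SE 0.31, adjusted p = 0.796) for its log2 fold change. For both strands 3 of the Rubicon-/- libraries lay below every Rubicon+/- library, and replicate 2 lay within the Rubicon+/- range.

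Rubicon-/- replicate 2, the deepest library, was thus the lowest Rubicon-/- library for both miR-23 guides and the highest for the other members. For miR-24-3p Rubicon-/- replicate 3 was within the Rubicon+/- range as well. Without replicate 2 the log2 fold changes were 0.33 for miR-23a-3p, 0.37 for miR-23b-3p, -0.56 for miR-27a-3p, -0.58 for miR-27b-3p, -0.41 for miR-24-3p, -0.88 for miR-24-1-5p and -0.72 for miR-24-2-5p. Each was larger in size than with it and in the same direction. Leaving out another library brought some fold changes closer to 0 by over 1.5 times. The value was 0.11 for miR-23a-3p without Rubicon-/- replicate 1, 0.13 for miR-23b-3p without Rubicon-/- replicate 3 and -0.21 for miR-27b-3p without Rubicon-/- replicate 4. For miR-24-3p it was -0.15 without Rubicon-/- replicate 1, -0.16 without Rubicon-/- replicate 4 and -0.16 without Rubicon+/- replicate 3. None of these passed in limma after adjustment (lowest adjusted p = 0.223, for miR-24-1-5p without Rubicon-/- replicate 2). Without that replicate 4 of the 7 had an unadjusted p under 0.05 in limma, and 4 of all 463 miRNAs passed after adjustment. The share of all miRNAs at the unadjusted threshold is not given for this setting. That replicate was also singled out by these same levels, so the member count cannot be set against a background. In Rubicon-/- replicate 2 the erythrocyte markers miR-451a (1599.6 CPM) and miR-144-3p (621 CPM) were at their highest among the Rubicon-/- libraries. Summed, these 2 markers were at 1724 to 3126 CPM in Rubicon+/- and 701 to 2220.1 in Rubicon-/-. The endothelial markers miR-126a-3p and miR-126a-5p summed to 6038 to 11056 CPM in Rubicon+/- and 6112 to 11931 in Rubicon-/-, where replicate 2 was again highest. The sum of the 3 markers of microglia and leukocytes was also highest there, at 693 CPM, where the lowest Rubicon-/- library had 392.3 and the Rubicon+/- libraries had 567 to 779. Other lists were mixed. Of the smooth muscle markers, miR-143-3p was highest among the Rubicon-/- libraries in replicate 2 (3205 CPM) and miR-145a-5p in replicate 3 (3618 CPM). Their sum was highest in replicate 3, at 5786 CPM. Of the neuron markers, miR-124-3p was lowest among the Rubicon-/- libraries in replicate 2 (36837 CPM) and miR-128-3p in replicate 3 (62985 CPM). Their sum was lowest in replicate 3, at 100515 CPM. None of these markers was at 0 in any library. The part of these cells and of depth in the member levels was not tested.

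Ratios between families were compared within each library, since they do not depend on its scaling. The log2 ratio of miR-23 to miR-27 (a and b summed in each) was 0.88, 0.95, 0.98 and 1.03 in Rubicon+/-. It was 1.72, 0.76, 1.96 and 1.98 in Rubicon-/-. All Rubicon-/- libraries but replicate 2 were above the Rubicon+/- range, and replicate 2 was below it. The means were 0.96 ± 0.06 and 1.60 ± 0.58 (SD, n = 4 each), and the difference of 0.65 did not pass (exact two-sided permutation test over 70 splits, p = 0.143, adjusted p = 0.45 over 9 measures added after the data were seen). The log2 ratio of miR-23 to miR-24-3p was 0.66, 0.37, 0.31 and 0.63 in Rubicon+/- and 1.46, 0.21, 1.09 and 1.21 in Rubicon-/-. The means were 0.49 ± 0.18 and 0.99 ± 0.55 (SD, n = 4 each), and this difference did not pass either (exact permutation p = 0.143, adjusted p = 0.796 over 13 measures). Without replicate 2 this difference was 0.77 in place of 0.50, and that of miR-23 to miR-27 was 0.93, or 1.01 without the 2 libraries over 5000000 reads. The log2 ratio of miR-27 to miR-24-3p was -0.47 ± 0.20 in Rubicon+/- and -0.61 ± 0.27 in Rubicon-/- (SD, n = 4 each, exact permutation p = 0.4, adjusted p = 0.796), and the groups overlapped. This difference of -0.14 was between -0.26 (without Rubicon-/- replicate 1) and -0.06 (without Rubicon-/- replicate 3) with 1 library left out.

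**Figure D2:**
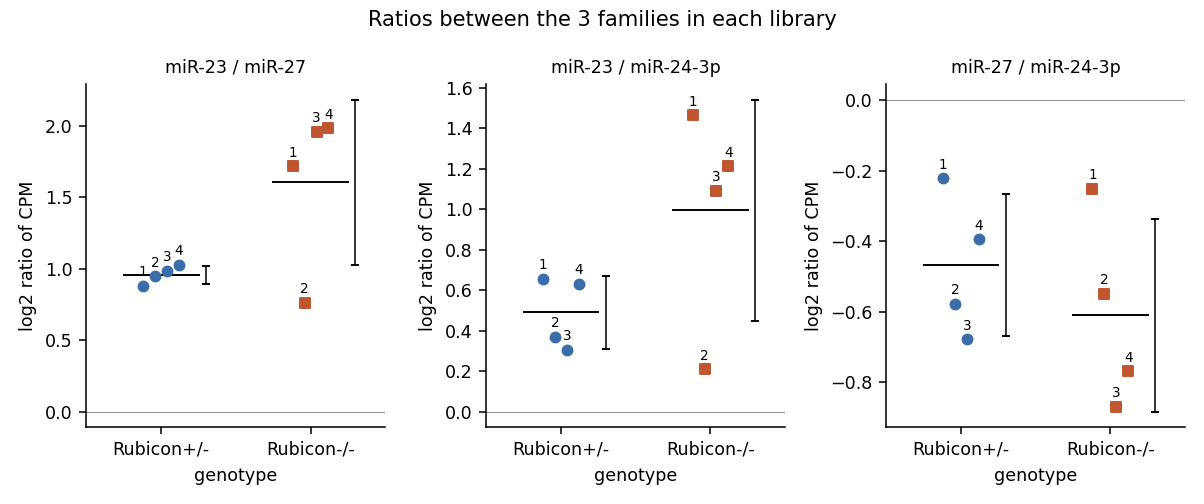
Log2 ratio of CPM between families in each library (numbers are replicates), with the mean (line) and SD (bar) of each genotype. In the first 2 panels Rubicon-/- replicates 1, 3 and 4 lie above the Rubicon+/- libraries and replicate 2 lies below them, while the third panel overlaps.

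For miR-23 and miR-27 the b paralog had more reads than the a paralog in all 8 libraries. On the resolved reads miR-23b-3p was 2.07-fold above miR-23a-3p (log2 level, a minus b, -1.05 ± 0.15, SD, n = 8, between -1.31 and -0.83). miR-27b-3p was 1.58-fold above miR-27a-3p, where the log2 level, a minus b, was -0.66 ± 0.26 (SD, n = 8), between -1.03 and -0.40. For the passenger strands the order was the other way, since miR-24-2-5p of the a cluster exceeded miR-24-1-5p of the b cluster by 0.58 ± 0.16 (SD, n = 8) on the log2 scale. Each of these 3 contrasts had the same sign in 8 of 8 libraries (exact sign-flip permutation test over the libraries, p = 0.00781, the smallest that 8 libraries can give, and adjusted p = 0.00859 over 11 contrasts). These compare reads of different sequences and not molecule numbers.

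No shift in the balance of the paralogs was detected between genotypes. The share of miR-23a among miR-23 reads was 33.0% ± 1.51 in Rubicon+/- and 32.3% ± 3.06 in Rubicon-/- (SD, n = 4 each, exact permutation p = 0.743). The share of miR-27a among miR-27 reads was 39.1% ± 4.05 and 38.7% ± 4.93 (SD, n = 4 each, exact permutation p = 0.943). The share of miR-24-2-5p among the miR-24 5p reads was 58.7% ± 3.15 and 61.2% ± 1.35 (SD, n = 4 each, exact permutation p = 0.2). This difference of 2.53 points was 3.82 without Rubicon+/- replicate 1 (exact permutation p = 0.0286, the smallest possible, adjusted p = 0.371) and 1.27 without Rubicon+/- replicate 4. The passenger strands made up 3.07% ± 0.634 of all miR-24 reads in Rubicon+/- and 2.55% ± 0.534 in Rubicon-/- (SD, n = 4 each, exact permutation p = 0.343). That difference of -0.518 points was -0.226 without Rubicon+/- replicate 2 and -0.275 without Rubicon-/- replicate 3. With all libraries, the lowest adjusted p of these over 13 measures was 0.796.

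The remaining arms of the hairpins were scarce. miR-27b-5p, the passenger of miR-27b, was at 28.5 ± 12.5 CPM in Rubicon+/- and 28.9 ± 5.84 in Rubicon-/- (SD, n = 4 each). It was the only one of 7 other arms above the filter, and limma gave 0.08 (SE 0.38, adjusted p = 0.975) for its log2 fold change. The means over 8 libraries were 2.46 CPM for miR-23a-5p, 3.96 for miR-23b-5p, 0.211 for miR-27a-5p, 1.28 for miR-3074-5p and 0.205 for miR-3074-1-3p. The last pair of names comes from hairpins annotated on the opposite strand of Mir24-1 and Mir24-2. miR-3074-2-3p had no reads under its name. Of the passenger strands of the clusters, only those of miR-24 thus had means above 100 CPM.

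The guides of the clusters carried frequent 3′ tails. A read was called templated when it matched the RefSeq hairpin of its name to its last base, and tailed when bases after the match differed from it. The most abundant miR-24-3p read was itself tailed. It carried a U that neither hairpin has at this place, as shown by the tail and the hairpin base in capitals.
mmu-miR-24-3p: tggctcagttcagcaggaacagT
Mir24-1: uggcucaguucagcaggaacagGag
Mir24-2: uggcucaguucagcaggaacagGag
These stretches are chr13:63301251-63301275 and chr8:84208875-84208899 of GRCm38.p6, both plus strand. The tailed 23-nt read was at 3463, 4184, 5090.4 and 3589 CPM in Rubicon+/- and at 2333, 4290.1, 3827 and 3367 in Rubicon-/-. It was 31.9% of miR-24-3p over the 8 libraries, ahead of the templated 22-nt read at 26.4% (3114 ± 826 CPM) and the 20-nt read at 16.05% (1893 ± 470.0). In limma the log2 fold change came to -0.26 (SE 0.27, adjusted p = 0.973), and the groups overlapped. It was -0.08 without Rubicon-/- replicate 1 and -0.15 without Rubicon+/- replicate 3. U tails of any length were on 33.8%, 36.4%, 37.4% and 36.01% of miR-24-3p reads in Rubicon+/- and on 32.9%, 33.9%, 35.6% and 43.9% in Rubicon-/-. Only Rubicon-/- replicate 4 was above 40%, and the difference between genotypes was within their spread (exact permutation p = 0.943). The difference of 0.658 points was 3.85 without the 2 libraries over 5000000 reads and -1.79 without Rubicon-/- replicate 4.

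The same comparison for miR-23b-3p and miR-27a-3p, the other guides with frequent tails, shows where the added U replaced a hairpin base.
mmu-miR-23b-3p: atcacattgccagggattaccacT
Mir23b: aucacauugccagggauuaccacGca
mmu-miR-27a-3p: ttcacagtggctaagttccgcT
Mir27a: uucacaguggcuaaguuccgcCcc
Mir23b is shown at chr13:63300529-63300554 and Mir27a at chr8:84208727-84208750, both plus strand. The tailed 24-nt miR-23b-3p read was at 1496 ± 299.9 CPM (SD, n = 8), close to the templated 23-nt read at 1599 ± 476. The tailed 22-nt miR-27a-3p read was at 432, 420.2, 358 and 319 CPM in Rubicon+/- and at 231, 347, 225 and 89.2 in Rubicon-/-. It had the second smallest p of all member reads, the log2 fold change in limma being -0.92 (SE 0.38, adjusted p = 0.876), and only Rubicon-/- replicate 2 lay within the Rubicon+/- range. The fold change was -0.53 without Rubicon-/- replicate 4 and -1.42 without the 2 libraries over 5000000 reads.

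Paralogs that share a seed thus had different ends in RISC. U tails were on 17.2% ± 2.46 of miR-23b-3p and 6.69% ± 2.18 of miR-23a-3p reads (SD, n = 8). In miR-27 it was the a paralog that was tailed more often, at 16.1% ± 2.78 against 6.86% ± 1.12 (SD, n = 8). The mean read length was 21.9 nt for miR-23b-3p and 21.2 nt for miR-23a-3p, with a difference, a minus b, of -0.65 ± 0.0778 nt, and 21.1 nt for miR-27a-3p and 20.7 nt for miR-27b-3p, a difference of 0.362 ± 0.0545 nt (SD, n = 8). The 4 contrasts of miR-23 and miR-27 had 1 sign each in 8 of 8 libraries (exact sign-flip permutation test, adjusted p = 0.00859 over 11 contrasts). The passenger strands had almost no tails and differed less, with mean lengths of 21.70 nt for miR-24-2-5p and 21.98 nt for miR-24-1-5p. The former was shorter in 7 of 8 libraries (exact sign-flip permutation test, adjusted p = 0.0156), a call lost without the 2 libraries over 5000000 reads (adjusted exact p = 0.0625). A read that ends on the paralog base (19 nt from the usual start) can be either a templated read or a tailed shorter one, and such reads were counted as templated. They made up 10.5% of miR-27b-3p, 5.59% of miR-23a-3p, 2.08% of miR-27a-3p and 1.61% of miR-23b-3p. Without them these contrasts kept their signs and calls, but the miR-27 length difference was 0.208 nt in place of 0.362 nt, and it was 0.165 nt on reads of 20 to 24 nt. An A after the 21-nt miR-27b-3p read is templated, and after that of miR-27a-3p it is not.

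**Figure D3:**
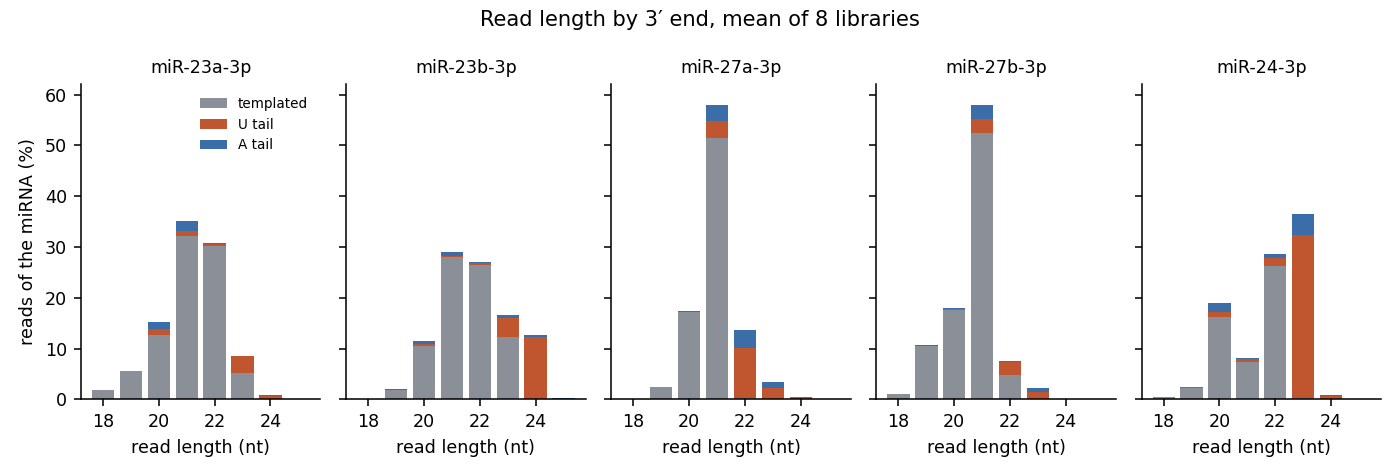
Percent of the reads of each guide (mean of 8 libraries) by read length in nt, split into reads that match the hairpin to their end (grey) and reads with a U tail (orange) or A tail (blue); other tails and internal mismatches are not drawn. The 23-nt peak of miR-24-3p and the 24-nt bar of miR-23b-3p are mainly U-tailed, whereas the 21-nt peak of both miR-27 paralogs is mainly templated.

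No difference in the ends of the guides between genotypes passed after adjustment. U tails were on 11.2% ± 1.33 of miR-27 reads in Rubicon+/- and 9.51% ± 0.830 in Rubicon-/- (SD, n = 4 each, exact permutation p = 0.0857, adjusted p = 0.45), a difference of -1.72 points that was -1.09 without Rubicon+/- replicate 2. In miR-23 they were on 13.8% ± 1.81 and 13.6% ± 1.36 (SD, n = 4 each, exact permutation p = 0.857). A tails were on 2.57% ± 0.631 and 2.96% ± 1.11 of miR-23 reads, on 5.28% ± 1.01 and 6.28% ± 1.44 of miR-27 reads, and on 7.12% ± 0.666 and 6.58% ± 1.05 of miR-24-3p reads (SD, n = 4 each, lowest exact permutation p = 0.429). The A tail difference of miR-27, 0.997 points, was 0.311 without Rubicon-/- replicate 4 and 0.533 without Rubicon+/- replicate 2. That of miR-24-3p, -0.54 points, was -0.101 without Rubicon-/- replicate 4, -0.225 without Rubicon+/- replicate 4 and -0.89 without Rubicon-/- replicate 3. The mean lengths in Rubicon+/- and Rubicon-/- were 21.6 and 21.6 nt for miR-23, 20.9 and 20.9 nt for miR-27, and 21.9 and 21.8 nt for miR-24-3p, with exact permutation p of at least 0.429.

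The 5′ ends define the seed, and here too the paralogs differed. Reads with another seed than the main one were 5.59% ± 0.583 of miR-23b-3p against 2.95% ± 0.337 of miR-23a-3p, and 3.19% ± 0.467 of miR-27b-3p against 1.71% ± 0.446 of miR-27a-3p (SD, n = 8). miR-23b-3p began 1 base late in 4.51% ± 0.553 of its reads, and miR-23a-3p in 0.707% ± 0.190, whereas a start 1 base early was on 1.44% of miR-23a-3p and 0.353% of miR-23b-3p reads. The passenger strand miR-24-1-5p had the least fixed start, with 15.2% ± 5.24 of reads beginning 1 base early and 13.5% ± 6.42 beginning 1 base late (SD, n = 8). In sum 28.8% ± 8.84 of miR-24-1-5p reads had another seed, against 1.91% ± 1.44 for miR-24-2-5p. All 3 paralog contrasts had 1 sign in 8 of 8 libraries (exact sign-flip permutation test, adjusted p = 0.00859 over 11 contrasts). For miR-24-1-5p single libraries ran from 18.6% to 44.7%, on as few as 70 reads.

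**Figure D4:**
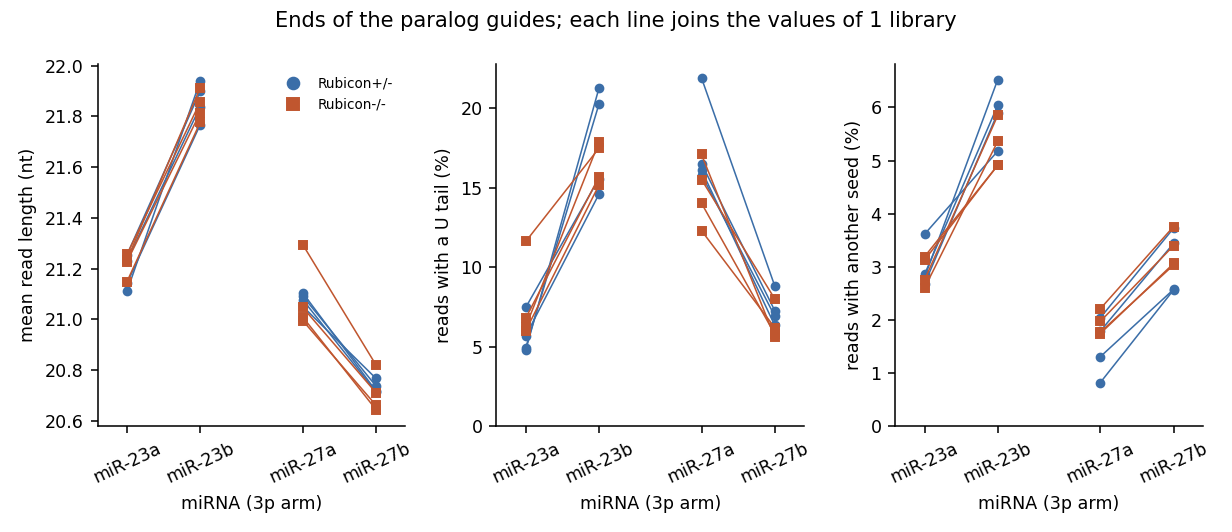
Mean read length in nt, percent of reads with a U tail and percent of reads with another seed for the a and b paralogs of miR-23 and miR-27, with 1 line per library (circles, Rubicon+/-; squares, Rubicon-/-). In every library miR-23b is longer and more often tailed than miR-23a, the order is reversed in miR-27, and the b paralog has more reads with another seed in both families.

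Between genotypes, reads with another seed were 4.68%, 4.92%, 5.26% and 4.83% of miR-23 in Rubicon+/- and 4.72%, 4.34%, 4.41% and 4.44% in Rubicon-/-. Apart from Rubicon-/- replicate 1, the Rubicon-/- libraries lay below all Rubicon+/- libraries. The difference of -0.444 percentage points had an exact two-sided permutation p of 0.0571 and an adjusted p of 0.743 over 13 measures, where the smallest p of 70 splits is 0.0286. For miR-27 the values were 2.45% ± 0.552 and 2.78% ± 0.339 and for miR-24-3p 3.23% ± 0.556 and 3.35% ± 0.268 (SD, n = 4 each, exact permutation p = 0.343 and 0.8). The miR-27 difference of 0.327 points was 0.122 without Rubicon+/- replicate 4, 0.17 without Rubicon-/- replicate 1 and 0.518 without Rubicon+/- replicate 3.

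The 6mer seed viability of the table is the mean viability of 3 mouse cell lines after transfection of an siRNA with that seed in an earlier screen, and low values mark toxic seeds. Only the main seed of miR-24-3p (GGCUCA) was low, at 31.8, beside 59.0 for miR-27 (UCACAG), 65.5 for miR-23 (UCACAU) and 70.2 for the 5p strands (UGCCUA). The members supplied most of the RISC-bound reads with these seeds. miR-24-3p made up 98.4% of GGCUCA reads, miR-27 95.9% of UCACAG, miR-23 98.9% of UCACAU and the 5p strands 98.7% of UGCCUA (means of 8 libraries). A start 1 base late turned miR-24-3p to GCUCAG, with a viability of 77.3, in 1.84% of its reads, and miR-23b-3p to CACAUU, with 75.6, in 4.49%. In miR-24-1-5p it gave GCCUAC, with a viability of 39.1, in 13.9% of its reads, and miR-24-1-5p was the source of 81.3% of all reads with that seed.

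By seed, no difference between genotypes passed after adjustment for the clusters. Of 990 seeds whose mean reached 10 CPM, limma called 0.303% after adjustment and 5.76% before, and 0 of these 4 seeds in either way. The log2 fold changes were 0.25 ± 0.21 for UCACAU, -0.39 ± 0.24 for UCACAG, -0.27 ± 0.24 for GGCUCA and -0.55 ± 0.29 for UGCCUA (SE; lowest limma adjusted p = 0.849). With 1 library left out they were between 0.15 and 0.36 for UCACAU, -0.55 and -0.24 for UCACAG, and -0.41 and -0.15 for GGCUCA. Neither edgeR nor DESeq2 was run on seeds. Among all reads with a seed viability under 40, miR-24-3p took 8.91%, 8.67%, 12.1% and 8.19% in Rubicon+/- and 7.55%, 10.5%, 8.41% and 7.96% in Rubicon-/-. It was the third most abundant name among them, after miR-127-3p and miR-16-5p. Within the members, reads with a seed viability under 40 were 28.2%, 32.3%, 33.6% and 28.9% in Rubicon+/- and 20.95%, 33.9%, 26.2% and 24.6% in Rubicon-/-. Of the Rubicon-/- libraries only replicate 2 was not below the Rubicon+/- range, and the difference of -4.34 percentage points did not pass (exact permutation p = 0.2, adjusted p = 0.45 over 9 measures). It was -6.83 without Rubicon-/- replicate 2 (exact permutation, adjusted p = 0.0857) and -2.52 without Rubicon-/- replicate 1 (adjusted p = 0.771). The mean viability of member reads was 54.0 ± 0.802 in Rubicon+/- and 55.8 ± 2.07 in Rubicon-/- (SD, n = 4 each, exact permutation p = 0.171, adjusted p = 0.45). Its difference of 1.78 was 2.77 without replicate 2 and 1.17 without replicate 1 of Rubicon-/-.

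Single reads were tested over all 3299 sequences whose mean reached 10 CPM. Of the 1011 member sequences 115 passed this filter, and they held 97.0% of the member CPM. None passed an adjusted p of 0.05 in limma, edgeR or DESeq2, beside 0.485% of all sequences in limma. Without adjustment 4 had p under 0.05 in limma, 3 in edgeR and 5 in DESeq2. In limma this was 3.48% of the member reads, beside 5.3% of all sequences. Of the 4, 2 were higher and 2 lower in Rubicon-/-, beside 1.12% of all sequences higher and 4.18% lower. Of the tested reads, 18 of 20 of miR-23a-3p and 23 of 29 of miR-23b-3p had fold changes above 0, whereas 12 of 14 of miR-27a-3p, 12 of 16 of miR-27b-3p, 20 of 30 of miR-24-3p and all 6 of the 5p strands were below 0. Over all members 57 were above and 58 below 0, beside 48.4% above and 51.6% below 0 of all 3299 sequences. Reads of 1 miRNA share its molecules and are not separate replicates.

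The lowest p among member reads was that of a 23-nt miR-24-3p read, shown with the bases from its first mismatch with the hairpins onward in capitals.
mmu-miR-24-3p: tggctcagttcagcaggaacGGT
It was at 36.7, 37.1, 22.5 and 25.9 CPM in Rubicon+/- and at 4.33, 23.5, 16.3 and 8.82 in Rubicon-/-. Only Rubicon-/- replicate 2 reached the Rubicon+/- range, and limma gave a log2 fold change of -1.34 (SE 0.48, adjusted p = 0.683). The third in this order was a 20-nt miR-23b-3p read with a U tail, at 54.1, 22.7, 53.2 and 48.8 CPM in Rubicon+/- and 70.1, 50.8, 111 and 118 in Rubicon-/-. For this read limma gave 0.95 (SE 0.40, adjusted p = 0.879) on the log2 scale, again with replicate 2 within the Rubicon+/- range. The most abundant reads of the other guides were templated and 21 nt long. They were at 2041 CPM for miR-23a-3p, 3533 for miR-23b-3p, 1609 for miR-27a-3p and 2619 for miR-27b-3p, with log2 fold changes of 0.02, 0.14, -0.39 and -0.47 (limma adjusted p of 0.973 or above). The next were 22 nt (1923 CPM) and 20 nt (779 CPM) in miR-23a-3p and 22 nt (3403 CPM) in miR-23b-3p. In miR-27a-3p the 20-nt read was at 527 CPM, and in miR-27b-3p the 20-nt and 19-nt reads were at 849 and 509.8 CPM. miR-24-2-5p was mostly 1 read of 22 nt (149 CPM, 72.7%), followed by 21 nt (43.6 CPM) and 20 nt (4.20 CPM, under the filter). miR-24-1-5p was spread over reads of 23 nt (47.3 CPM, 34.2%), 21 nt (20.7 CPM) and 22 nt (17.4 CPM).

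Correlations were computed for all 21 pairs of members on log2(CPM + 1) over the 8 libraries, with exact permutation p adjusted over the 21. CPM are shares of 1 total, which the points have in common. The highest was that of the passenger strands miR-24-1-5p and miR-24-2-5p, which come from different chromosomes (Pearson r = 0.95, adjusted exact permutation p = 0.0109; Spearman rho = 0.90, adjusted p = 0.0479). It was 0.93 without the 2 libraries farthest from the median and 0.94 within genotypes. By contrast, miR-23b-3p and miR-24-1-5p, both of the b cluster, ran in opposite directions (r = -0.80, adjusted exact permutation p = 0.0424; rho = -0.86, adjusted p = 0.0653), with r = -0.86 without the 2 farthest libraries and -0.70 within genotypes. With miR-24-2-5p of the a cluster, miR-23b-3p had the same r of -0.80 (adjusted exact permutation p = 0.0424; rho = -0.90, adjusted p = 0.0479), which was -0.78 without 2 libraries and -0.71 within genotypes. miR-27b-3p was positively correlated with both passengers. Its r was 0.82 with miR-24-1-5p (adjusted exact permutation p = 0.0424; rho = 0.81, adjusted p = 0.0653; 0.71 without 2 libraries, 0.73 within genotypes). With miR-24-2-5p it was 0.80 (adjusted exact permutation p = 0.0424; rho = 0.81, adjusted p = 0.0653; 0.89 without 2 libraries, 0.71 within genotypes). The paralog pairs missed the threshold (miR-23a-3p and miR-23b-3p, r = 0.80, adjusted exact permutation p = 0.0527, rho = 0.81, adjusted p = 0.0653, 0.74 without 2 libraries; miR-27a-3p and miR-27b-3p, r = 0.76, adjusted p = 0.0598, rho = 0.67, adjusted p = 0.145, 0.57 without 2 libraries). Within-cluster pairs of miR-23 and miR-27 had r of -0.62 in the a cluster and -0.57 in the b cluster (adjusted exact permutation p = 0.139 and 0.176). Their rho was -0.62 and -0.76 (adjusted exact permutation p = 0.161 and 0.0965), and r was -0.40 and -0.66 without 2 libraries. Within genotypes r was -0.46 and -0.38 for these pairs, and 0.74 and 0.63 for the paralog pairs of miR-23 and miR-27.

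As a description, the miRNAs outside the clusters whose levels followed each family most closely were listed among 271 names with a mean of at least 100 CPM, by Pearson r over the 8 libraries after centring on the genotype means. For miR-23 these were miR-540-3p (r = 0.91), miR-676-3p (0.90) and miR-383-5p (0.83). For miR-27 they were miR-15a-5p (0.92), miR-1839-3p (0.90) and miR-32-5p (0.89). For miR-24-3p they were miR-1843a-5p (0.90), miR-7a-1-3p (0.84) and miR-330-5p (0.81).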

How the data were processed

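RISC-bound short RNAs were isolated by Ago pull-down and sequenced in 8 libraries, taken as 8 mice, with genotype and replicate number as in the sample titles. Per the study's methods, the authors trimmed the reads (Trim Galore, per the submitters' processing notes), removed rare and artificial reads and named each read by BLAST with the SPOROS pipeline. Genome build and versions are not given in the sources used here. The deposited CPM are reads per 1000000 reads of a library as scaled by the authors. CPM were whole multiples of 1 read for 100% of values (tolerance 0.001 CPM), so reads could be recovered, and all sequences had at least 8 reads over the libraries. The deposited viability score of a seed is an average by the authors over 3 mouse cell lines.

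CPM were summed by miRNA name or by 6mer seed. limma 3.58.1 (trend, robust; R 4.3.3) was fitted to log2(CPM + 1) of features with a mean of at least 10 CPM, with Benjamini-Hochberg adjustment over all features. edgeR 4.0.16 (quasi-likelihood) and DESeq2 1.42.0 on recovered reads were alternatives, as were other pseudocounts and filters, median centring, a replicate block, leaving out libraries and read length limits. Fits were tested on simulated data with changes larger than the fold changes of the members. This does not show whether changes of the members' size could be detected. Per-library measures were compared with exact two-sided permutation tests over 70 splits (smallest p 0.0286) and paralogs with exact sign-flip tests over 8 libraries (Python 3.11.15, scipy 1.17.1). Named were all members, the 3 most abundant reads of each, the 3 member reads with the smallest p, their main seeds, the other hairpin arms measured and the 3 most alike miRNAs per family. Members, lists and rules were chosen with earlier results of these data known. Intervals and floors cover counting error only.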

Additional observations from a re-analysis of the deposited data

Results flagged for a closer look

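In 58 groups of 4 libraries (member levels and per-library measures in each genotype), 4 had 1 library far from the rest, by a gap above Dixon's 95% critical value, and chance alone gives about 1 in 20 such groups, or 2.9. miR-24-1-5p was at 179 CPM in Rubicon-/- replicate 2, where the nearest Rubicon-/- library was at 92.4 CPM, and miR-24-2-5p was at 278 CPM in the same library, with the nearest at 143 CPM. The mean length of miR-27 reads was 20.8 nt (20.8337) in Rubicon+/- replicate 2, with the nearest at 20.9 nt. A tails were on 1.63% of miR-23 reads in Rubicon+/- replicate 2, with the nearest at 2.83%.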

How the results depend on the processing

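0 of 7 miRNAs, 0 of the member reads and 0 of 4 seeds passed under any alternative run (18, 18 and 10 settings), while 4 to 10 miRNAs, 5 to 45 reads and 0 to 7 seeds passed in the whole table, against 6, 16 and 3. Each of the 7 miRNAs and 4 seeds kept its direction. Without Rubicon-/- replicate 2, 4 member miRNAs and 14 member reads had an unadjusted p under 0.05, and without the 2 libraries over 5000000 reads 2 and 13. The shares of all miRNAs and all reads at this threshold are not given for these settings, so these counts cannot be set against a background. Of 982 alternative values, 945 kept direction and side of the threshold, 36 changed sign, all of differences that were not called, and 1 lost its call. The cause was not tested. The lost call was the read length of miR-24-2-5p minus miR-24-1-5p without the 2 deep libraries (-0.28 nt, adjusted exact p = 0.0625, where 6 libraries cannot go below 0.0312 before adjustment).

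Without the 2 deep libraries the difference (Rubicon-/- minus Rubicon+/-) became 3.67 points in the miR-27a share, 0.0414 nt in miR-27 length, 0.0467 nt in miR-24-3p length and 0.223 points in miR-23 U tails. Reads of 20 to 24 nt gave 0.0109 nt for miR-27 length. The miR-27a share differed by 0.417 points in reads of at least 21 nt and by 0.0223 points in reads that pass the paralog base (this choice, and all alternatives of tails, viability, miR-23 to miR-27 ratio and paralog contrasts, were added after the data were seen). With single libraries left out, differences ranged from -2.01 to 0.431 points (miR-23a share), -2.32 to 1.56 points (miR-27a share), -0.146 to 0.283 points (other seeds of miR-24-3p), -0.0233 to 0.0211 nt, -0.0684 to 0.0156 nt and -0.145 to 0.00273 nt (length of miR-23, miR-27 and miR-24-3p), -0.231 to 0.145 points (the 7 members), -0.886 to 0.453 and -1.79 to 1.88 points (U tails of miR-23 and miR-24-3p) and -0.139 to 0.714 points (A tails of miR-23). For read log2 fold changes they ranged from -0.14 to 0.17 (miR-23a-3p, 21 nt), -0.0025 to 0.34 (miR-23b-3p, 21 nt), -0.35 to 0.17 (miR-27b-3p, 19 nt) and -0.33 to 0.067 (miR-24-3p, 20 nt). Of 55 differences between genotypes that were not called, leaving out 1 library moved 46 by over 1.5 times or past 0, and of the 11 called paralog contrasts it moved 0.

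The genotypes share replicate numbers only. Deviations of same-numbered libraries correlated at 0.04, 0.29, -0.18 and 0.25, and not every library correlated best with its own number. With the replicate block 10 miRNAs, 26 reads and 4 seeds passed, with 0 members (miR-24-1-5p, limma adjusted p = 0.595), and permutation within the 4 pairs cannot go below 0.125. Depth limits the 5p strands most, which had 70 to 5534 reads a library.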

Other observations

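Taken by cluster, on reads that reach the paralog base, the log2 ratio of miR-23 to miR-27 had larger SDs in the Rubicon+/- libraries than the SD of 0.06 of the a and b reads summed. In the a cluster (miR-23a-3p over miR-27a-3p) it was 0.72 ± 0.20 in Rubicon+/-, between 0.55 and 1.01, and 1.35 ± 0.57 in Rubicon-/-, between 0.54 and 1.85. In the b cluster (miR-23b-3p over miR-27b-3p) it was 1.10 ± 0.15 in Rubicon+/-, between 0.91 and 1.25, and 1.75 ± 0.66 in Rubicon-/-, between 0.87 and 2.28 (SD, n = 4 each). These values were chosen after the data were seen. Over the 8 libraries the b cluster was 0.39 above the a cluster, higher in 6 of 8 libraries (exact sign-flip permutation test, p = 0.0312, not adjusted). This difference is by construction that between the miR-27 and miR-23 paralog contrasts, so it adds no separate evidence, and without the 2 libraries over 5000000 reads its exact permutation p was 0.0625. Within each genotype it was 0.25.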
